A study of Mus musculus with 2 samples.

Results

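The cells described here were T lymphocytes of the mouse colon whose droplets held few or no transcripts of MHC class II. They were chosen from the raw UMI counts of each cell barcode (a UMI, or unique molecular identifier, marks 1 captured transcript). A member had at least 200 detected genes, at most 20% of its UMIs from mitochondrial genes, at least 2 UMIs summed over Cd3d, Cd3e and Cd3g, at most 10 UMIs of H2-Ab1, no UMI of Ms4a1 and fewer than 10 UMIs of Lyz2. This rule found 291 barcodes among 9153, of which 211 came from the library labelled deficient for the long noncoding RNA lncly6c (1700016P04Rik) and 80 from the library labelled wild type. They made up 3.58% of the 5890 barcodes that passed the first 2 limits in the deficient-labelled library (exact 95% interval 3.12 to 4.09%) and 3.07% of 2610 in the wild-type-labelled library (2.44 to 3.8%).

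Both libraries were droplet libraries (10x Genomics 3' chemistry, version 3) of lamina propria cells, the tissue that supports the gut lining, from male C57BL/6 mice of 6 to 8 weeks kept free of specific pathogens. The deficient-labelled library came from mice in which Cas9 mRNA and guide RNA, injected into zygotes, had cut before exon 1 and after exon 2, so that the whole of 1700016P04Rik was lost in every cell. The wild-type-labelled library came from mice with that gene intact. How many mice each library pooled was not given in the sources used here. The series asked how lncly6c affects the differentiation of macrophages, and its T cells were captured along with all other lamina propria cells.

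There was 1 library for each genotype, so no difference between genotypes could be tested, and every interval below covers counting error alone. The deposited files of the 2 libraries carry genotype words in their names that are the opposite of the sample labels. The labels were followed, and every direction between the libraries would exchange if the file names were right. The gene itself could not settle this: 1700016P04Rik, an intergenic noncoding gene on the plus strand of chromosome 6 (13413337 to 13415996, GRCm38), had 0 UMIs in both libraries, in T cell barcodes and in all other kept barcodes. Total depth was 54773076 UMIs in the deficient-labelled library and 23384895 in the wild-type-labelled library. A T cell barcode held a median of 4680 UMIs (range 652 to 30499) and 1621 genes in the deficient-labelled library, against 5842 UMIs (2166 to 15554) and 1877 genes in the wild-type-labelled library. The libraries shared 7 barcode sequences, of which 0 belonged to a T cell barcode.

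T cells recognise peptides through a receptor of paired alpha and beta chains, or gamma and delta chains, that signals through the CD3 proteins. The coreceptor CD4 binds MHC class II and marks helper and regulatory cells, and CD8, built from the chains of Cd8a and Cd8b1, binds MHC class I and marks cytotoxic cells. The colon also holds T cells with neither coreceptor, many of them with gamma-delta receptors, and regulatory T cells that carry the transcription factor Foxp3 and restrain responses to the gut flora. Conventional T cells of the mouse do not make MHC class II, which is the property of B cells, dendritic cells and macrophages.

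Genes that the rule had not used set the members apart from B cell barcodes. A UMI of an alpha-beta receptor constant gene (Trac, Trbc1 or Trbc2) was found in 209 of 211 T cell barcodes of the deficient-labelled library and in 79 of 80 of the wild-type-labelled library. B cell barcodes, taken as those with at least 1 Ms4a1 and 2 Cd79a UMIs, a CD3 sum under 2 and fewer than 10 Lyz2 UMIs, had such a UMI in 13 of 377 and 1 of 67. Barcodes taken as natural killer (NK) and innate lymphoid cells, with a CD3 sum of at most 1, had one in 58 of 93 and 28 of 33. These were taken by at least 2 UMIs over Ncr1, Klrb1c and Il7r, under the H2-Ab1, Ms4a1 and Lyz2 limits of the rule. T cells with few captured CD3 UMIs could be among them, which was not tested. The receptor genes thus separated the members less clearly from these barcodes than from B cells. With the delta chain gene Trdc added, 211 of 211 deficient-labelled and 79 of 80 wild-type-labelled T cell barcodes had a receptor constant gene. Trbc2 stood at 824 CPM (counts per 1000000 UMIs of the class, counting interval 772 to 880) in the deficient-labelled and 901 CPM (820 to 989) in the wild-type-labelled T cells. Trac stood at 399 CPM (363 to 439) and 438 CPM (381 to 500) in the same order of libraries. The receptor constant genes were thus present in nearly every member, and both levels lay within 2-fold between the libraries.

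Among the markers used by the rule, Cd3e was at 280 CPM in deficient-labelled and 417 CPM in wild-type-labelled T cells, and Cd3g at 385 and 377 CPM. Both chose the members and are given as a description. The median CD3 sum of a member was 5 UMIs in the deficient-labelled and 6.5 in the wild-type-labelled library. At the edge of the rule, members with a CD3 sum of exactly 2 numbered 25 and 7, and all of them had a receptor constant gene, whereas barcodes just outside, with a sum of 1, had one in 23 of 34 and 9 of 16. With H2-Ab1 at 6 to 10 UMIs there were 15 and 1 members, and 5 and 1 barcodes lay just outside at 11 to 15. H2-Ab1 was at 0 in 33 of 211 deficient-labelled and 42 of 80 wild-type-labelled members. Barcodes with a CD3 sum of at least 2 but more than 10 H2-Ab1 UMIs were left out; they numbered 158 (2.68% of kept barcodes) and 17 (0.651%) and were deeper, with medians of 15936 and 17737 UMIs.

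Barcodes with a clear signal of another cell type were few among the members. Immunoglobulin, MHC class II and myeloid transcripts were nevertheless spread thinly over the deficient-labelled library. The myeloid gene Lyz2, capped by the rule, was at 0 UMIs in 115 of 211 deficient-labelled and 59 of 80 wild-type-labelled members. At least 50 immunoglobulin UMIs were found in 1 deficient-labelled and 0 wild-type-labelled members, a raised level of the neutrophil genes S100a8 and S100a9 in 1 and 1, and a raised level of collagen genes and Dcn in 1 and 0. Igkc, the kappa light chain of antibodies, had a UMI in 159 of 211 deficient-labelled members and in 9 of 80 wild-type-labelled members, and 11209 of its 11516 UMIs in the deficient-labelled members sat in 1 barcode. All kept barcodes outside the T cells showed the same order for Igkc, 8361 CPM in the deficient-labelled and 1493 CPM in the wild-type-labelled library. Cd74, the invariant chain of MHC class II, stood at 795 CPM (743 to 850) in deficient-labelled and 188 CPM (151 to 230) in wild-type-labelled T cells, against 16096 and 14590 CPM in B cell barcodes. T cell levels of Cd74 were a small share of those in B cells, and the part of free RNA in them was not tested.

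The coreceptors divided the members into fractions whose intervals overlapped between the libraries. In the deficient-labelled library 48 of 211 barcodes had Cd4 and neither Cd8 gene (22.7%, interval 17.3 to 29.0%), and in the wild-type-labelled library 17 of 80 did (21.3%, 12.9 to 31.8%). Cd8a or Cd8b1 without Cd4 was found in 55 barcodes (26.1%, 20.3 to 32.5%) of the deficient-labelled and 17 barcodes (21.3%, 12.9 to 31.8%) of the wild-type-labelled library. Both coreceptors occurred together in 2 deficient-labelled and 0 wild-type-labelled members. The largest class in each library had no coreceptor UMI at all, with 106 barcodes (50.2%, 43.3 to 57.2%) in the deficient-labelled and 46 (57.5%, 45.9 to 68.5%) in the wild-type-labelled library. These 3 classes are called Cd4-only, Cd8-only and neither in what follows.

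**Figure D1:**
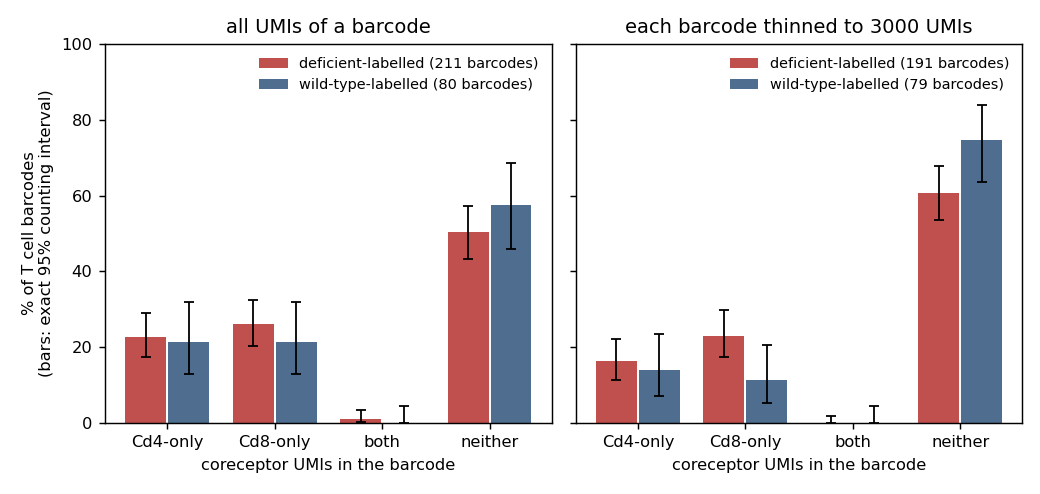
Share of T cell barcodes (vertical axis, %) in each coreceptor class, with all UMIs on the left and with every barcode thinned to 3000 UMIs on the right; bars show the deficient-labelled library beside the wild-type-labelled one and lines are exact 95% counting intervals. The intervals of the libraries overlap in every class, and the neither class grows from 50.2% to 60.7% in the deficient-labelled and from 57.5% to 74.7% in the wild-type-labelled library when barcodes are thinned.

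Coreceptor transcripts are scarce, so the neither class can hold cells whose coreceptor went uncaptured as well as cells that lack one. The share of each was not tested. Cd4 averaged 329 CPM (259 to 411) in deficient-labelled and 327 CPM (225 to 459) in wild-type-labelled Cd4-only cells, which is 1 or 2 UMIs in a barcode of median depth. Thinned to 3000 UMIs, which left 191 and 79 barcodes, the Cd4-only share was 16.2% in the deficient-labelled and 13.9% in the wild-type-labelled library, the Cd8-only share 23.0% and 11.4%, and the neither share 60.7% and 74.7%. B cell barcodes gave few such UMIs, with Cd4 in 5 of 377 and 1 of 67 and Cd8a or Cd8b1 in 0 of 377 and 0 of 67. The class medians were 4422.5 and 5775 UMIs for Cd4-only, 5040 and 6073 for Cd8-only, and 4499 and 5745 for neither, with the deficient-labelled library first.

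Within the Cd8-only class the beta chain was often captured, which is the chain that intestinal cells with a CD8 alpha homodimer do not make. Both Cd8a and Cd8b1 were found in 23 of 55 deficient-labelled and 4 of 17 wild-type-labelled barcodes, Cd8b1 alone in 16 and 7, and Cd8a alone in 16 and 6. Cd8b1 stood at 410 CPM (342 to 488) in deficient-labelled and 174 CPM (105 to 272) in wild-type-labelled Cd8-only cells, with a log2 ratio of 1.24 (0.53 to 2.01). Cd8a stood at 239 and 165 CPM, and its log2 ratio of 0.53 had an interval that covered 0 (-0.22 to 1.37). Cd8a and Cd8b1 were used to choose the class, so these levels describe it.

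Cytotoxic genes were higher in the Cd8-only than in the Cd4-only class of both libraries. Of 2049 genes with at least 50 UMIs over both classes and libraries, 24 were past 2-fold higher in Cd8-only cells in both libraries (1.17%) and 49 were past 2-fold lower in both (2.39%). Of the 5 measured genes of the cytotoxic list, 4 were higher in both libraries and 0 lower: Nkg7, a granule membrane protein, Klrd1, the CD94 receptor chain, Ctsw, a cathepsin of killer cells, and Ccl5, a chemokine stored by effector T cells. The median of the list was 3.94 in the deficient-labelled and 2.30 in the wild-type-labelled library, where the median of all genes was 0.03 and -0.19. Of 7 measured genes of the tissue-residency list, 2 were higher in both libraries and 0 lower.

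Xcl1, a chemokine that draws cross-presenting dendritic cells, led the genes with at least 100 UMIs when these were ranked by the smaller of their ratios in both libraries. It stood at 371 CPM (115 UMIs in 25 of 55 barcodes) in Cd8-only and 4.27 CPM (1 UMI) in Cd4-only cells of the deficient-labelled library, a log2 ratio of 6.44 (3.94 to 11.76). In the wild-type-labelled library it had 32 UMIs in 4 of 17 Cd8-only barcodes and none in 17 Cd4-only barcodes, which with a floor of 3 counts per class is a log2 ratio of at least 3.30. Xcl1 was thus nearly confined to Cd8-only cells in this pair of classes, but in the wild-type-labelled library it rested on 4 barcodes.

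Nkg7 stood at 704 CPM in Cd8-only and 17.1 CPM in Cd4-only cells of the deficient-labelled library (log2 ratio 5.37, 3.99 to 7.25), and at 211 and 49.5 CPM in those of the wild-type-labelled library (2.09, 0.66 to 3.84). It was detected in 35 of 55 and 7 of 17 Cd8-only barcodes. Klrd1 was detected in 32 of 55 and 9 of 17 Cd8-only barcodes, against 3 of 48 and 0 of 17 Cd4-only barcodes. Cd7, a surface protein of early and innate-like T cells, had log2 ratios of 5.24 and 4.35, and it was carried by 11 of 55 and 5 of 17 Cd8-only barcodes. Each of these genes was therefore carried by some of the Cd8-only barcodes and not by all of them.

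Ccl5 rested on 1 barcode in the Cd4-only class of the deficient-labelled library. It was at 3631 CPM in Cd8-only and 1733 CPM in Cd4-only cells there (log2 ratio 1.07, 0.90 to 1.23), and at 1384 and 39.6 CPM in the wild-type-labelled library (5.13, 3.74 to 7.02). Of the 406 Ccl5 UMIs in deficient-labelled Cd4-only cells, 369 sat in 1 barcode, and the smaller of both ratios was 0.46 when members with any Lyz2 UMI were left out. By detection, Ccl5 was in 32 of 55 and 9 of 17 Cd8-only barcodes and in 13 of 48 and 2 of 17 Cd4-only barcodes.

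Nr4a2, a nuclear receptor induced by receptor signalling, and Litaf, an endosomal protein listed here with tissue residency, were also higher in Cd8-only than Cd4-only cells of both libraries. Nr4a2 was at 817 CPM in Cd8-only and 124 CPM in Cd4-only cells of the deficient-labelled library, and at 1971 and 307 CPM in those of the wild-type-labelled library. Its log2 ratios, 2.72 (2.17 to 3.33) and 2.68 (2.13 to 3.27), lay close together, although its level was more than 2-fold lower in the deficient-labelled library in each class. Litaf had log2 ratios of 1.78 and 2.74 and Dusp2, a phosphatase that dampens MAP kinases, of 1.43 and 2.57.

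Several genes of the regulatory T cell list were lower in Cd8-only cells. Of 7 measured genes of the regulatory T cell list, 5 were past 2-fold lower in both libraries and 0 higher (list medians -1.66 and -4.20). In the deficient-labelled library this rested on some of the Cd4-only barcodes, since the list per barcode had medians of 950 CPM in Cd8-only and 914 CPM in Cd4-only cells but upper quartiles of 1731 and 4220 CPM. Maf, a transcription factor that drives Il10 in gut T cells, stood at 16.1 CPM in Cd8-only and 354 CPM in Cd4-only cells of the deficient-labelled library (log2 ratio -4.46, -6.12 to -3.18), and at 9.17 and 466 CPM in those of the wild-type-labelled library (-5.67, -11 to -3.12). Tnfrsf4, the costimulatory receptor OX40, had log2 ratios of -3.66 and -5.73, and Il10, the anti-inflammatory cytokine, of -2.78 and -5.24. Icos, a costimulatory receptor of helper cells, had ratios of -1.24 and -2.61, and the smaller of both was -0.98 without the barcodes richest in Icos. Cd5, a surface brake on receptor signalling and the only receptor-signalling gene of 19 measured to pass, had ratios of -1.90 and -2.23.

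**Figure D2:**
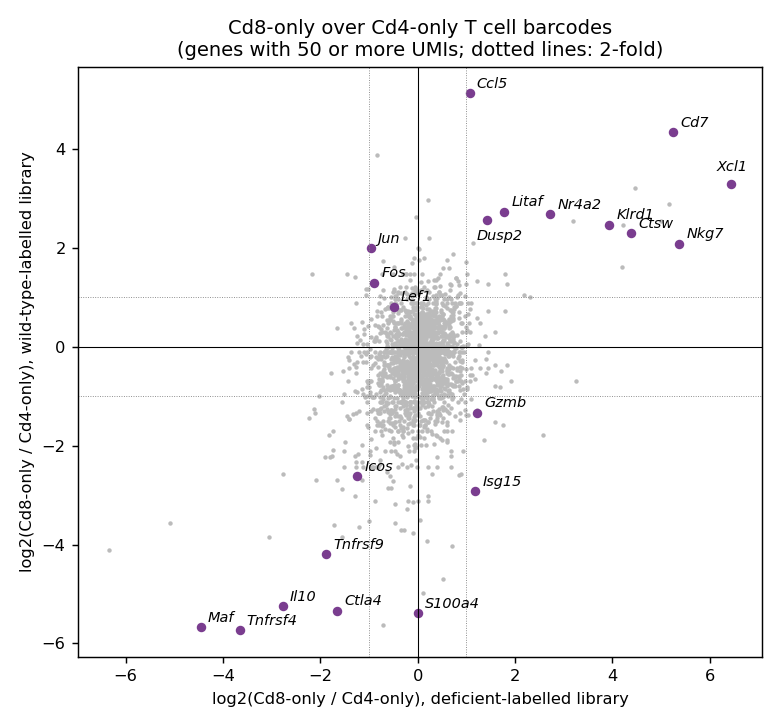
Log2 ratio of Cd8-only over Cd4-only T cells for each gene with at least 50 UMIs, in the deficient-labelled library (horizontal axis) and in the wild-type-labelled library (vertical axis); purple points are named and dotted lines mark 2-fold. Xcl1, Nkg7 and Klrd1 lie at the upper right and Maf, Tnfrsf4 and Il10 at the lower left, while Fos, Jun, Gzmb and Isg15 have opposite signs in the 2 libraries; points that rest on a count of 0 in 1 class, among them Xcl1 and Klrd1 on the vertical axis, are bounds.

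Ctla4, an inhibitory receptor of regulatory and activated T cells, was captured in Cd8-only cells of the deficient-labelled library alone. In the deficient-labelled library it was at 242 CPM in Cd8-only and 764 CPM in Cd4-only cells and was detected in 24 of 55 and 23 of 48 barcodes. In the wild-type-labelled library it was in 0 of 17 Cd8-only and 11 of 17 Cd4-only barcodes, with 0 and 112 UMIs. Thinned to 3000 UMIs, the Cd8-only shares were 20 of 52 in the deficient-labelled and 0 of 17 in the wild-type-labelled library. The zero in 17 barcodes allows a level of up to 27.5 CPM at 3 counts.

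The Cd4-only class held a Foxp3-positive fraction in both libraries, at shares whose wide intervals overlapped. Foxp3, the factor that defines regulatory T cells (chromosome X, 7573644 to 7595245, plus strand, GRCm38), had a UMI in 11 of 48 Cd4-only barcodes of the deficient-labelled library (22.9%, 12.0 to 37.3%). In the wild-type-labelled library it had one in 4 of 17 (23.5%, 6.81 to 49.9%). It was found in 1 of 55 and 0 of 17 Cd8-only barcodes, in 5 of 106 and 2 of 46 neither barcodes, and in 0 of 377 and 0 of 67 B cell barcodes. Foxp3 was thus detected most often in Cd4-only barcodes, with 42 and 14 UMIs in all T cells.

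Foxp3-positive barcodes carried the other genes of the regulatory program at high level. Ctla4 was at 2471 CPM in Foxp3-positive and 188 CPM in Foxp3-negative Cd4-only cells of the deficient-labelled library, and it was detected in 11 of 11 and 12 of 37 barcodes. In the wild-type-labelled library it was at 5409 and 283 CPM, in 4 of 4 and 7 of 13 barcodes. Ikzf2, the Helios factor of many thymus-derived regulatory T cells, was in 9 of 11 Foxp3-positive and 6 of 37 Foxp3-negative barcodes of the deficient-labelled library, and in 4 of 4 and 4 of 13 of the wild-type-labelled library. Il10 followed, at 592 CPM in Foxp3-positive and 126 CPM in Foxp3-negative cells of the deficient-labelled library and at 1844 and 59.1 CPM in the wild-type-labelled library, although here 3 of the 4 wild-type-labelled Foxp3-positive barcodes carried all 30 of its UMIs. Tnfrsf18, the receptor GITR, was at 474 and 74.2 CPM and at 861 and 189 CPM in the same order.

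Maf and Tnfrsf4 reached beyond the Foxp3-positive cells. Maf was at 914 CPM in Foxp3-positive and 166 CPM in Foxp3-negative cells of the deficient-labelled library, and at 1475 and 272 CPM in the wild-type-labelled library, where 6 of 13 Foxp3-negative barcodes carried it. Tnfrsf4 was at 948 and 62.8 CPM in the deficient-labelled and at 1045 and 378 CPM in the wild-type-labelled library. With 11 and 4 Foxp3-positive barcodes and a Foxp3 level of 1 or a few UMIs, some Foxp3-expressing cells may be among those counted as negative.

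Factors of other helper lineages ranged from scarce to more common than Foxp3. Foxp3 itself had a UMI in 18 of 211 deficient-labelled and 6 of 80 wild-type-labelled members. Zbtb7b, the factor of the Cd4 lineage, had 6 UMIs in the deficient-labelled and 4 in the wild-type-labelled T cells. Tbx21, the T-bet factor of Th1 and cytotoxic cells, had 43 UMIs in the deficient-labelled and 8 in the wild-type-labelled T cells, in 27 of 211 and 7 of 80 barcodes. Gata3, the Th2 factor that is also active in other T cells, was more common, in 48 of 211 and 27 of 80. Runx3, the factor of the Cd8 lineage, was at 239 CPM in Cd8-only and 158 CPM in Cd4-only cells of the deficient-labelled library (log2 ratio 0.60, 0.01 to 1.21) and at 174 and 178 CPM in the wild-type-labelled library (-0.03, -1.04 to 0.98), which is within 2-fold in both. Eomes had 11 and 9 UMIs, Zbtb16, the factor of innate-like T cells, had 13 and 4, and Bcl6, the factor of follicular helper cells, had 55 and 48.

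Cytotoxic genes were higher in the neither class than in Cd4-only cells, as they were in the Cd8-only class, and so were innate-like genes. The neither and Cd8-only classes were not compared with each other. Of 3056 measured genes, 72 were past 2-fold higher than in Cd4-only cells in both libraries (2.36%) and 31 past 2-fold lower in both (1.01%). The cytotoxic list had 5 of 8 measured genes higher and 0 lower, with medians of 2.33 in the deficient-labelled and 2.38 in the wild-type-labelled library. The innate-like list had 4 of 5 higher and 0 lower, with medians of 2.57 and 2.0, where the median of all genes was 0.00 and 0.00. The regulatory T cell list had 4 of 11 measured genes lower, among them Ctla4 (log2 ratios -1.96 and -2.14), Tnfrsf4 (-2.10 and -2.36) and Il10 (-1.54 and -1.88), and 1 higher.

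Xcl1 was at 542 CPM in neither and 4.27 CPM in Cd4-only cells of the deficient-labelled library, and at 416 CPM in neither cells of the wild-type-labelled library against 0 UMIs in its Cd4-only cells. It was carried by 30 of 106 and 17 of 46 neither barcodes. Cd7 was carried by 37 of 106 and 23 of 46 neither barcodes, with log2 ratios over Cd4-only of 5.78 (3.27 to 11.09) and 5.11 (2.60 to 10.43). Fcer1g, a signalling adaptor of innate-like lymphocytes and myeloid cells, had ratios of 3.33 and 4.38, and it was in 44 of 106 and 18 of 46 neither barcodes. B cell barcodes, read here as the background of free RNA, had Fcer1g in 14.3% and 11.9%.

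The 1 regulatory-list gene that was higher in the neither class was Ikzf2. It stood at 930 CPM (850 to 1015) in neither and 260 CPM in Cd4-only cells of the deficient-labelled library (log2 ratio 1.84, 1.45 to 2.24), and at 1081 CPM (963 to 1208) and 347 CPM in the wild-type-labelled library (1.64, 1.13 to 2.19). It was carried by 59 of 106 and 34 of 46 neither barcodes and by no B cell barcode. Over all T cells, 59 of 91 and 34 of 51 Ikzf2 barcodes were in the neither class, which held 106 of 211 and 46 of 80 of all T cell barcodes. Cd2, an adhesion receptor, Cd5 and Cd6, a relative of Cd5, were the 3 receptor-signalling genes of 20 measured that were lower in the neither class, with ratios of -1.29 and -1.20, -1.77 and -1.20, and -2.25 and -2.92.

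**Figure D3:**
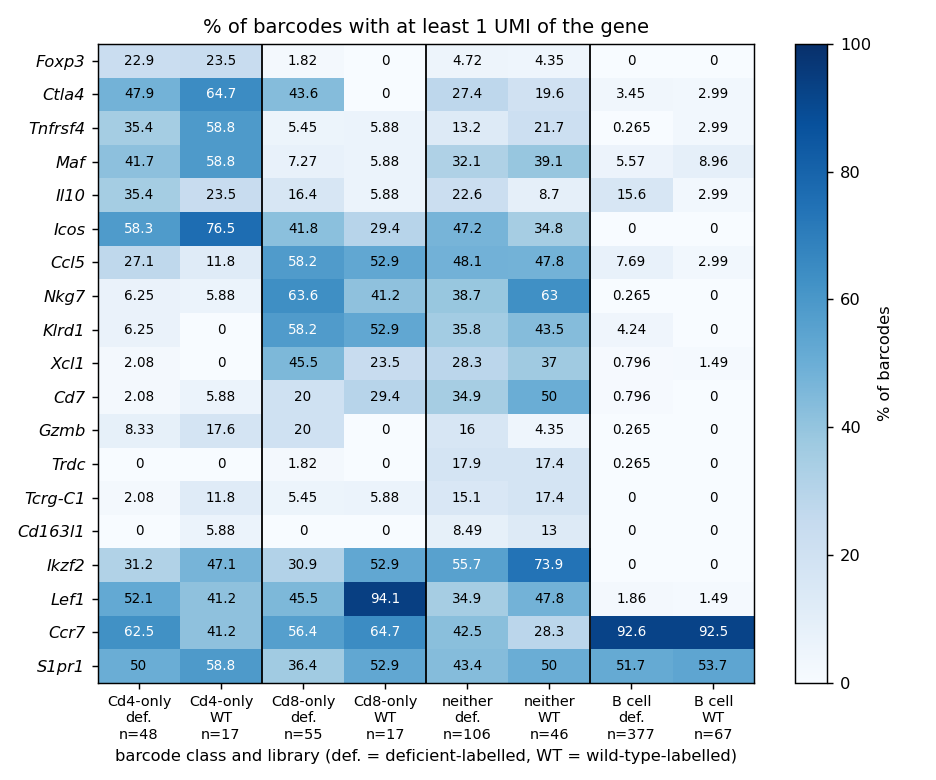
Percent of barcodes with at least 1 UMI of each gene, by coreceptor class and library, with B cell barcodes as a free-RNA background on the right; darker cells are higher. Foxp3 was at 22.9% and 23.5% in Cd4-only barcodes, Trdc at 17.9% and 17.4% in neither barcodes, and Ikzf2 at 55.7% and 73.9% in neither barcodes; Ccr7 and S1pr1 were also common in B cells.

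Barcodes with a delta chain transcript made up a part of the neither class. Trdc, the delta chain constant gene (chromosome 14, 54142851 to 54148868, plus strand, GRCm38), had a UMI in 19 of 106 neither barcodes of the deficient-labelled library (17.9%, 11.2 to 26.6%). In the wild-type-labelled library it had one in 8 of 46 (17.4%, 7.82 to 31.4%). It was in 0 of 48 and 0 of 17 Cd4-only barcodes, in 1 of 55 and 0 of 17 Cd8-only barcodes, and in 1 of 377 and 0 of 67 B cell barcodes. Counted over all T cells, Trdc barcodes were 20 of 211 (9.48%, 5.89 to 14.3%) and 8 of 80 (10%, 4.42 to 18.8%). Among T cell barcodes, delta chain transcripts were thus almost exclusive to those without a captured coreceptor, at shares whose intervals overlapped between the libraries. Outside the members, barcodes taken as NK and innate lymphoid cells had Trdc in 6 of 93 and 8 of 33. A Trac, Trbc1 or Trbc2 UMI was in 18 of 20 and 8 of 8 Trdc barcodes, and which receptor each cell used was not tested.

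Several other genes of gamma-delta cells were detected in a larger share of Trdc barcodes than of neither barcodes without Trdc. Cd163l1, the scavenger receptor SCART1 of interleukin-17-type gamma-delta cells, was in 9 of 20 Trdc barcodes of the deficient-labelled and 6 of 8 of the wild-type-labelled library, and in 0 of 87 and 0 of 38 other neither barcodes. Tcrg-C1, a gamma chain constant gene, was in 14 of 20 and 6 of 8 Trdc barcodes and in 3 of 87 and 2 of 38 others. Counted over Tcrg-C1, Tcrg-C2 and Tcrg-C4, gamma constant genes that share sequence, a UMI was in 38 of 211 and 21 of 80 T cell barcodes, more than the 20 and 8 with Trdc, and among them were 6 of 55 and 2 of 17 Cd8-only and 1 of 48 and 3 of 17 Cd4-only barcodes. Trdv4, a delta variable segment, was in 8 of 20 and 5 of 8 Trdc barcodes and in 1 of 87 and 0 of 38 others. Tmem176b, a channel-like membrane protein common in interleukin-17-type lymphocytes, was in 11 of 20 and 6 of 8 Trdc barcodes and in 18 of 87 and 4 of 38 others. The cytokine itself was rare: Il17a had a UMI in 5 of 211 and 1 of 80 T cell barcodes, and 2 of the 20 and 1 of the 8 Trdc barcodes were among them.

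Trdc barcodes were low in Trac but not in Trbc2. Trac was at 106 CPM in Trdc barcodes and 392 CPM in the other neither barcodes of the deficient-labelled library, and at 60.4 and 487 CPM in those of the wild-type-labelled library. Trbc2 was at 835 and 700 CPM in the deficient-labelled and at 1128 and 1079 CPM in the wild-type-labelled library. Xcl1 was at 95.2 CPM in Trdc barcodes and 631 CPM in the other neither barcodes of the deficient-labelled library, and at 20.1 and 499 CPM in those of the wild-type-labelled library. It was carried by 25 of 87 and 16 of 38 neither barcodes without Trdc and by 5 of 20 and 1 of 8 Trdc barcodes. By detection, the shares were thus close to each other in the deficient-labelled library.

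Between the libraries most T cell genes lay within 2-fold. Over all T cells 3828 genes were measured with at least 50 UMIs; 114 of them were past 2-fold higher in the deficient-labelled than in the wild-type-labelled library (2.98%) and 58 past 2-fold lower (1.52%), with a median log2 ratio of -0.03. Of the 20 measured receptor-signalling genes 0 were past 2-fold in either direction, and the same held for 12 regulatory T cell genes, 10 tissue-residency genes, 11 genes of naive and recirculating cells and 8 cytokine receptor genes. Their list medians lay between -0.17 and -0.03. The lists that held genes past 2-fold were those of cytotoxic cells, Th1 cells, immediate-early genes, heat shock, interferon response and a few smaller ones, and the coreceptor classes did not move alike in them.

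Immediate-early genes, which are switched on within minutes of receptor or stress signals and also during tissue dissociation, were lower in the deficient-labelled library, most of all in Cd8-only cells. In the Cd8-only class 1109 genes were measured, of which 114 were past 2-fold higher (10.3%) and 40 past 2-fold lower (3.61%). Of 17 measured immediate-early genes, 7 were past 2-fold lower there and 0 higher, with a median of -0.91, while the median of all genes in this class was 0.08. The list summed to 9109 CPM in deficient-labelled and 16995 CPM in wild-type-labelled Cd8-only cells. In the neither class, where 49 of 2316 genes were past 2-fold higher (2.12%) and 64 lower (2.76%), 3 of 18 were lower, and the list summed to 10551 and 16185 CPM. In Cd4-only cells, where 38 of 932 genes were past 2-fold higher (4.08%) and 26 lower (2.79%), 1 was higher and 2 were lower of 17, and the sums were 9915 and 9778 CPM.

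Fos, a subunit of the AP-1 factor, carried this pattern in full. In Cd8-only cells it stood at 223 CPM (173 to 282) in the deficient-labelled and 853 CPM (688 to 1044) in the wild-type-labelled library, in 26 of 55 and 16 of 17 barcodes, a log2 ratio of -1.94 (-2.41 to -1.47). In neither cells it stood at 388 and 850 CPM (-1.13, -1.41 to -0.86), and in Cd4-only cells at 414 and 347 CPM (0.26, -0.32 to 0.86). The neither ratio was -0.80 with a mitochondrial limit of 10% and -0.87 with a CD3 sum of at least 1, both within 2-fold. Thinned to 3000 UMIs the Cd8-only shares were 19 of 52 and 13 of 17, and the Cd4-only shares 20 of 40 and 8 of 16. B cell barcodes had Fos at 256 and 323 CPM, and all other kept barcodes at 447 and 624 CPM, so a lower level in the deficient-labelled library was not limited to T cells.

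Egr1, an early growth response factor, stood at 120 CPM in deficient-labelled and 578 CPM in wild-type-labelled Cd8-only cells (log2 ratio -2.27, -2.90 to -1.66), and at 158 and 347 CPM in Cd4-only cells (-1.13, -1.84 to -0.43, or -0.89 with a CD3 sum of at least 3). Nr4a1, the Nur77 factor whose level reports receptor signalling, stood at 226 and 798 CPM in Cd8-only cells (-1.82, -2.29 to -1.35) and at 290 and 347 CPM in Cd4-only cells (-0.26, -0.87 to 0.38). Nr4a2 was lower in all 3 classes, with ratios of -1.31 in Cd4-only, -1.27 in Cd8-only and -1.09 in neither cells, the last of which was -0.95 as a mean over barcodes. In B cell barcodes Egr1 was at 104 and 105 CPM and Nr4a1 at 509 and 691 CPM. Jun, the partner of Fos, went with the class: 1.61 (0.65 to 2.73) in Cd4-only, -1.35 (-1.97 to -0.72) in Cd8-only and -0.54 in neither cells, although 28 of its 71 UMIs in deficient-labelled Cd4-only cells came from 1 barcode, and that ratio was 0.95 without members that carried transcripts of other cell types.

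Zfp36l1 and Zfp36l2, a pair of RNA-binding proteins that destabilise messenger RNA, were among the 10 lowest genes with at least 100 UMIs in Cd8-only cells. Zfp36l1 stood at 407 and 1604 CPM in that class (log2 ratio -1.98, -2.32 to -1.64) and at 704 and 872 CPM in Cd4-only cells (-0.31). Cd69, the early activation and retention receptor, stayed within 2-fold in every class, at 568 and 1118 CPM in Cd8-only, 329 and 634 CPM in Cd4-only, and 584 and 860 CPM in neither cells. The immediate-early list per barcode had a median of 8524 CPM in deficient-labelled and 19119 CPM in wild-type-labelled Cd8-only cells, 8438 and 10552 CPM in Cd4-only, 8666 and 12866 CPM in neither, and 6531 and 7603 CPM in B cell barcodes. The wild-type-labelled Cd8-only cells were thus the set that stood apart, and they numbered 17.

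**Figure D4:**
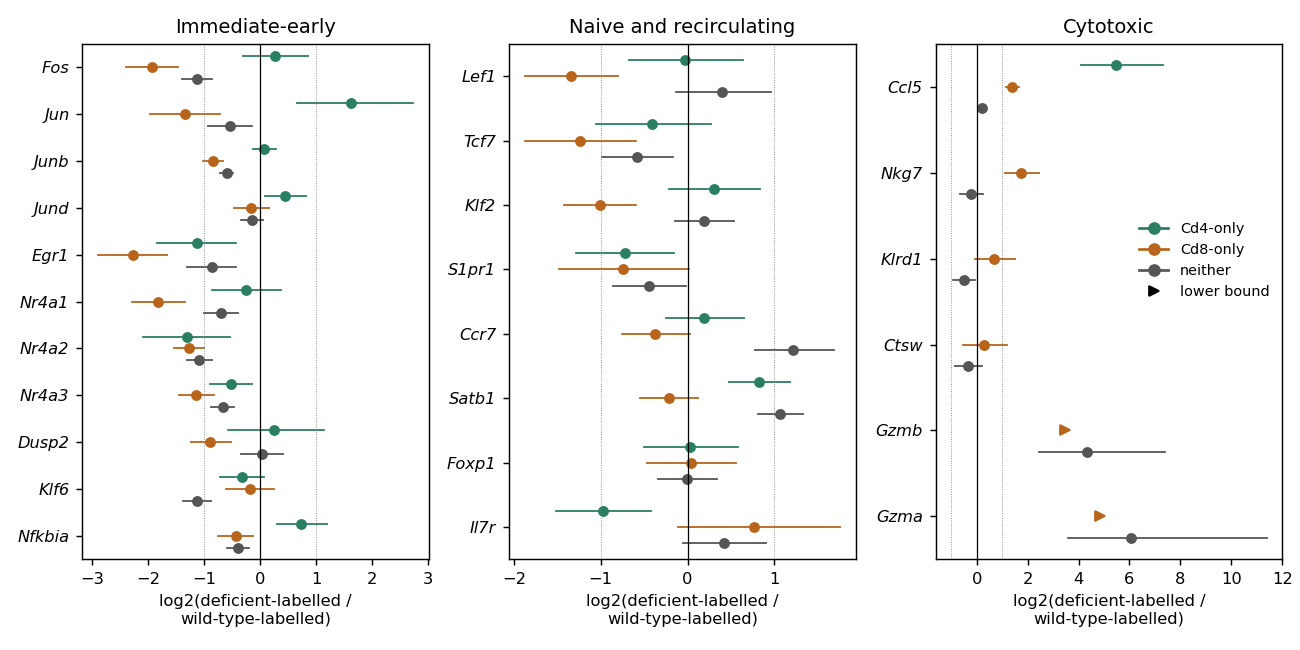
Log2 ratio of the deficient-labelled over the wild-type-labelled library for genes of 3 lists in each coreceptor class, with lines for exact 95% counting intervals and arrowheads for lower bounds where the wild-type-labelled count was 0; classes with fewer than 50 UMIs of a gene are not drawn. Fos, Egr1, Nr4a1 and Lef1 were lowest in Cd8-only cells, at -1.94, -2.27, -1.82 and -1.34.

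Genes of naive and recirculating T cells were lower in the Cd8-only class of the deficient-labelled library while 0 were past 2-fold lower in its other classes. Of 8 measured genes 3 were past 2-fold lower and 0 higher, with a median of -0.56. Lef1, a factor of naive T cells, stood at 207 CPM (25 of 55 barcodes) in deficient-labelled and 523 CPM (16 of 17 barcodes) in wild-type-labelled Cd8-only cells, a log2 ratio of -1.34 (-1.88 to -0.80). In Cd4-only cells Lef1 was at 290 and 297 CPM (-0.03, -0.67 to 0.64). Tcf7, its close relative, had a ratio of -1.24 (-1.88 to -0.60), with 155 and 367 CPM, and Klf2, which drives the exit receptor S1pr1, of -1.01 (-1.42 to -0.59), with 388 and 779 CPM. The Klf2 ratio was -0.77 without its richest barcodes, and the Lef1 ratio was -0.38 when 2 coreceptor UMIs were asked of a Cd8-only barcode. Ccr7, the lymph node homing receptor, was nearer to even, at 575 and 743 CPM (-0.37, -0.76 to 0.03).

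Naive genes were detected in many members. Lef1 had a UMI in 89 of 211 deficient-labelled and 45 of 80 wild-type-labelled T cell barcodes, and Ccr7 in 108 of 211 and 31 of 80. Ccr7 and S1pr1 are also B cell genes, and 92.6% and 92.5% of B cell barcodes had Ccr7, but Lef1 was in 1.86% and 1.49% of them. In the neither class the list moved the other way, with 2 of 8 measured genes past 2-fold higher and 0 lower: Ccr7 at 416 and 178 CPM (log2 ratio 1.22, 0.78 to 1.69) and Satb1, a chromatin organiser of T cells, at 1150 and 549 CPM (1.07, 0.81 to 1.33). The Ccr7 ratio was 0.94 when 2 UMIs were asked for a coreceptor.

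Cytotoxic effector genes were higher in the Cd8-only class of the deficient-labelled library, and a few of them in its neither class. In Cd8-only cells 4 of 6 measured genes were past 2-fold higher and 0 lower (median 1.57), and in neither cells 3 of 9 higher and 0 lower (median 0.19, or 1.06 with genes of at least 20 UMIs). Per barcode the list had a median of 3235 CPM in deficient-labelled and 418 CPM in wild-type-labelled Cd8-only cells, but of 729 and 1260 CPM in neither cells. The granzymes, serine proteases of killer granules, led the list, but few barcodes carried them. Gzma had 246 UMIs in 3 of 55 deficient-labelled Cd8-only barcodes, 131 of them in 1. In the 17 wild-type-labelled barcodes it had 0 UMIs, a log2 ratio of at least 4.85 with that 0 set to 3 counts. Gzmb was spread wider, with 95 UMIs in 11 of 55 and 0 in 17 Cd8-only barcodes (at least 3.48 at the same setting). In neither barcodes it had 76 UMIs in 17 of 106 and 2 in 2 of 46 (4.33, 2.43 to 7.41). A UMI of Gzma or Gzmb was found in 36 of 211 deficient-labelled T cell barcodes (17.1%, 12.2 to 22.8%). It was found in 6 of 80 wild-type-labelled ones (7.5%, 2.80 to 15.6%), so the intervals overlapped. In Cd4-only cells the order was the reverse, with 5 of 48 deficient-labelled (10.4%) and 3 of 17 wild-type-labelled barcodes (17.6%).

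Nkg7 was at 704 CPM in deficient-labelled and 211 CPM in wild-type-labelled Cd8-only cells (log2 ratio 1.74, 1.12 to 2.43), with 76 of its 218 UMIs in 1 barcode, and at 217 and 252 CPM in neither cells (-0.21, -0.65 to 0.23). Ccl5 was at 3631 and 1384 CPM in Cd8-only cells (1.39, 1.14 to 1.65) and at 2702 and 2371 CPM in neither cells (0.19). Klrd1 and Ctsw stayed within 2-fold in both classes, at 0.67 and 0.28 in Cd8-only and at -0.50 and -0.34 in neither cells. Klrc1, the inhibitory receptor NKG2A, had 71 UMIs in 22 of 211 deficient-labelled and 4 UMIs in 3 of 80 wild-type-labelled T cell barcodes (3.0, 1.58 to 4.92).

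Other single genes were past 2-fold higher in the deficient-labelled Cd8-only class, and those given here are a selection from its 114, not a list. Plac8, a protein of effector T cells, was at 549 CPM in deficient-labelled and 91.7 CPM in wild-type-labelled cells (log2 ratio 2.58), Bhlhe40, a factor that sustains cytokine output, at 449 and 101 CPM (2.15, 1.27 to 3.19), and Rora, a retinoid-related receptor, at 375 and 110 CPM (1.77). S100a4 and Lgals1, markers of antigen-experienced T cells, had ratios of 4.12 and 3.18, but 113 of 148 and 147 of 258 of their UMIs sat in 1 barcode each. Isg15, an interferon-response gene, had 54 UMIs in 16 of 55 deficient-labelled Cd8-only barcodes, 20 of them in 1 barcode, and 1 UMI in 17 wild-type-labelled barcodes (4.25, 1.71 to 9.58).

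**Figure D5:**
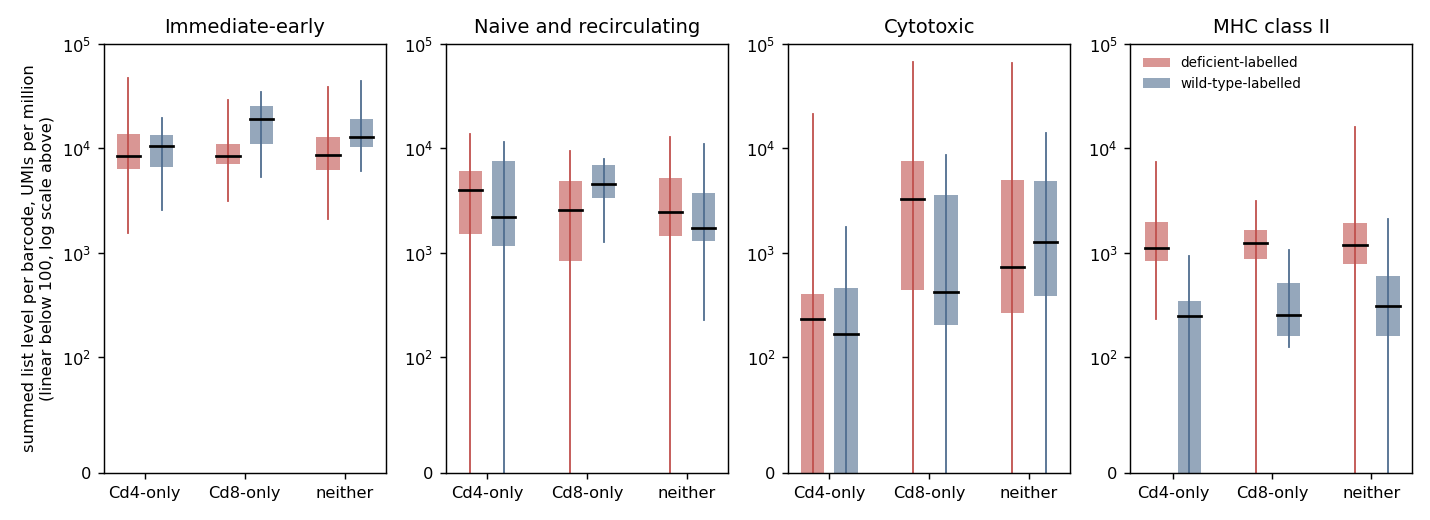
Summed level of 4 gene lists per barcode (vertical axis, CPM, logarithmic above 100 and linear below), by coreceptor class, with the deficient-labelled library left of the wild-type-labelled one; boxes span the quartiles, black lines are medians and thin lines run from the lowest to the highest barcode. Medians of the immediate-early list were 8524 and 19119 in Cd8-only cells, and the MHC class II list was higher in every class of the deficient-labelled library.

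Th1 genes followed in the whole T cell set, where 3 of 7 measured genes were past 2-fold higher and 0 lower. Ifng, the effector cytokine, had 88 UMIs in 24 of 211 deficient-labelled and 11 UMIs in 7 of 80 wild-type-labelled barcodes (log2 ratio 1.85, 0.94 to 2.91), and Tbx21 had a ratio of 1.28 (0.17 to 2.58). Of 8 measured interferon-response genes, 2 were higher and 1 lower. Ly6a, the surface protein Sca-1, was at 70.1 and 16.1 CPM (2.12, 1.07 to 3.38) and Irf1, a factor induced by interferon gamma, at 156 and 70.6 CPM (1.14, 0.61 to 1.71), while Irf7, a factor of the type I response, was lower at 25.5 and 54.4 CPM (-1.10, -1.91 to -0.28). In all other kept barcodes Ly6a was at 66.5 and 21.3 CPM, so its order was shared by other cells, whereas Irf1 was at 73.3 and 80.4 CPM there. The Irf1 ratio was 0.55 when members with any Lyz2 UMI were left out.

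A few heat shock genes were higher in the Cd4-only class of the deficient-labelled library, in a minority of its barcodes. Of 10 measured genes 3 were past 2-fold higher and 0 lower, with a median of 0.51, and in the neither class 2 of 11 were higher. The list per barcode did not follow, with Cd4-only medians of 6766 CPM in the deficient-labelled and 7529 CPM in the wild-type-labelled library. Hspa1a, an inducible HSP70 gene, had 135 UMIs in 13 of 48 deficient-labelled and 0 in 17 wild-type-labelled Cd4-only barcodes. Its log2 ratio was at least 4.28 with that 0 set to 3 counts. Hspa1b, its near-identical copy with which reads can be exchanged, had 147 UMIs in 16 of 48 and 2 UMIs in 2 of 17 (4.98, 3.11 to 8.04). A UMI of either was found in 89 of 211 deficient-labelled and 14 of 80 wild-type-labelled T cell barcodes. In all other kept barcodes Hspa1a was at 636 and 341 CPM and Hspa1b at 476 and 327 CPM, which is the same order with a smaller gap. Over all T cells the Hspa1b ratio was 0.81 when members with any Lyz2 UMI were left out.

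Spry2, Thy1 and Hes1 were lower in the deficient-labelled library. Spry2 inhibits growth factor signalling and was at 92.8 CPM in deficient-labelled and 297 CPM in wild-type-labelled neither cells (log2 ratio -1.68, -2.21 to -1.16), in 25 of 106 and 21 of 46 barcodes, and it had 0 UMIs in the Cd4-only class of both libraries. Thy1, the pan-T surface protein, was at 201 and 555 CPM in Cd4-only cells (-1.47, -2.06 to -0.88, or -0.90 when members with any Lyz2 UMI were left out) but at 304 and 284 CPM in Cd8-only and 238 and 245 CPM in neither cells. Hes1, a target of Notch, had the lowest ratio of all T cells, -3.70, but 93 of its 158 wild-type-labelled UMIs came from 1 barcode.

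MHC class II genes were higher in T cells of the deficient-labelled library in every class, although the rule had capped H2-Ab1. Of 3 measured genes 3 were past 2-fold higher over all T cells, with a median of 2.08, and the list summed to 1590 CPM in deficient-labelled and 387 CPM in wild-type-labelled T cells. H2-Aa, the alpha chain of I-A, was at 428 CPM in 175 of 211 and 94.8 CPM in 33 of 80 barcodes (log2 ratio 2.17, 1.74 to 2.64). Cst3, a cystatin abundant in myeloid cells, went the same way, at 442 and 137 CPM, and in B cell barcodes, which should lack it, at 1002 and 199 CPM. The listed markers of dendritic cells were low, at 24.6 and 8.06 CPM summed over Flt3, Xcr1, Clec9a, Cd209a and Zbtb46. Ccl22, a chemokine of mature dendritic cells, and Irf8, a factor of dendritic and B cells, were nevertheless among the 10 highest genes with at least 100 UMIs. Ccl22 had 244 UMIs in 30 of 211 deficient-labelled members, 134 of them in 1 barcode, and 5 UMIs in 5 of 80 wild-type-labelled members (log2 ratio 4.46, 3.22 to 6.10). Irf8 had 110 UMIs in 35 of 211 and 12 UMIs in 11 of 80 (2.05, 1.19 to 3.04). The B cell gene Cd79a had a UMI in 7 of 211 deficient-labelled and 1 of 80 wild-type-labelled members. Whether these UMIs came from the T cells themselves or from free RNA was not tested.

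Markers of several other cell types summed to under 100 CPM, while plasma cell, myeloid and stromal genes were higher in the deficient-labelled members. Epithelial genes summed to 32.8 CPM in deficient-labelled and 42.3 CPM in wild-type-labelled T cells, mast cell and eosinophil genes to 2.73 and 8.06 CPM, hemoglobin genes to 8.19 and 4.03 CPM, and group 2 innate lymphoid genes to 51.0 and 84.7 CPM. Myeloid genes summed to 1066 and 425 CPM, plasma cell genes to 17481 and 62.5 CPM, and stromal genes to 195 and 70.6 CPM. The barcode richest in Igkc held 11209 UMIs of it and the barcode richest in Jchain 1896 UMIs, both in the deficient-labelled library. When the members with clear transcripts of plasma cells, neutrophils, stroma or B cells were left out, 105 genes were past 2-fold higher and 48 lower over all T cells, against 114 and 58 with them. The part of UMIs spread thinly over the other members was not tested. A UMI of the proliferation genes Mki67 or Top2a was found in 31 of 211 deficient-labelled and 15 of 80 wild-type-labelled barcodes. The proliferation list stood at 978 and 911 CPM, and 1 of its 4 measured genes, Stmn1, a regulator of microtubules, was past 2-fold higher (log2 ratio 1.04, or 0.95 without its richest barcodes).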

How the data were processed

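The values were UMI counts per gene and barcode, deposited by the authors as raw matrices without normalization; the submitters' processing notes name STAR 2.5.1b, Cell Ranger and mm10, and the matrix headers give software 3.0.2. Coordinates are from GENCODE M21 (GRCm38). The members, gene lists and comparisons were chosen with earlier results of these data known.

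UMIs were summed over the barcodes of a class and divided by the class total (CPM, exact Poisson intervals), ratios are log2 of CPM (conditional binomial intervals) and shares have Clopper-Pearson intervals, all at 95%. A gene was measured with at least 50 UMIs over the sets compared, in both libraries together, and counted as past the fold at 2-fold. A class at 0 UMIs was set to 3 counts. A ratio against it is called a bound at that setting, which is not the limit of its 95% interval. UMIs of 1 barcode are not independent, so intervals cover counting error only. With 1 library per genotype, no test was run.

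Named genes were the markers, 9 lineage factors, in each of 29 lists (282 genes, 2 not in the matrix; 9 lists of other cell types) the 6 members with most UMIs and the 3 with the largest ratio, in each comparison 10 genes at either end among those with 100 UMIs or more, the 15 genes highest in T cells over the rest, and 5 receptor variable segments. Other genes were named after their values were seen. A few listed genes are not reported here.

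Scrublet in scanpy 1.11.5 called 2 and 6 barcodes, so it had not worked; removal by score rank (0.8% per 1000 barcodes, 278 and 54 barcodes) took 1 and 1 T cell barcodes and is an alternative. Barcodes were thinned to 1000 or 3000 UMIs with seed 1. The functions were checked on simulated data in Python 3.11.15 (scipy 1.17.1, numpy 2.4.6, matplotlib 3.10.9, pandas 2.3.3).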

Additional observations from a re-analysis of the deposited data

Results flagged for a closer look

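Isg15, an interferon-response gene, had opposite signs between the Cd8-only and Cd4-only classes in the 2 libraries. Its log2 ratio of Cd8-only over Cd4-only cells was 1.18 in the deficient-labelled library and -2.92 in the wild-type-labelled library. The wild-type-labelled Cd8-only count of Isg15 lay under the floor of 3 counts, so the second ratio rested on few UMIs. Gzmb, the granzyme B gene, had ratios of 1.21 in the deficient-labelled and -1.33 in the wild-type-labelled library. The second is a bound with the 0 UMIs of its Cd8-only class set to 3 counts. Thinned to 3000 UMIs, Gzmb was in 0 of 17 Cd8-only and 3 of 16 Cd4-only barcodes of the wild-type-labelled library. With 1 library per genotype the difference between the libraries was not tested for either gene.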

How the results depend on the processing

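Counts of genes are given as higher and lower in the deficient-labelled library for all T cells, Cd4-only, Cd8-only and neither cells, and as higher and lower in Cd8-only than Cd4-only cells of both libraries. At 2-fold they were 114 and 58, 38 and 26, 114 and 40, 49 and 64, and 24 and 49. At 1.5-fold they were 365 and 337, 80 and 155, 262 and 122, 165 and 263, and 67 and 147. With genes of at least 20 UMIs they were 397 and 193, 170 and 157, 454 and 114, 248 and 218, and 56 and 129. With at least 100 UMIs they were 36 and 21, 14 and 11, 38 and 18, 23 and 21, and 12 and 19.

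When 2 UMIs made a coreceptor class, the deficient-labelled shares were 8.53% Cd4-only, 18.5% Cd8-only, 0% both and 73.0% neither, and the wild-type-labelled shares 11.3%, 8.75% and 80% without the class of both. Cd4-only cells then had 14 genes higher and 11 lower, Cd8-only cells 25 lower and neither cells 76 higher. Thinned to 1000 UMIs, the deficient-labelled shares were 7.14%, 10.5%, 0% and 82.4%, and the wild-type-labelled shares 7.5%, 7.5% and 85%. Thinned to 3000 UMIs, an alternative added after seeing the data, the deficient-labelled shares of Cd4-only, both and neither were 16.2%, 0% and 60.7%, and the wild-type-labelled shares of Cd8-only and neither 11.4% and 74.7%.

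With a CD3 sum of at least 1, the deficient-labelled share of T cell barcodes was 4.16%, and the ratios of Ccl4 (-0.47 in all T cells, -0.38 in neither cells) and S100a9 (-0.53 and -0.31) changed sign. With H2-Ab1 at most 2 that share was 2.36%, 56 genes were higher in all T cells, 12 in Cd4-only, 51 in Cd8-only and 25 in neither cells, and 38 were lower in neither cells. With Lyz2 at 0 the T cell shares were 1.95% and 2.26%, and 25 genes were higher in Cd4-only and 32 in neither cells. Leaving out each gene's richest barcode per class and library, also added after seeing the data, left 36 genes lower in all T cells, 10 in Cd4-only, 25 in Cd8-only and 41 in neither cells. Leaving out barcodes with transcripts of other cell types, the third alternative added after seeing the data, moved none of these counts by more than 1.5 times. Why values moved was not tested.

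Over all alternatives, 135 counts of genes stayed within 1.5 times their value and 45 moved. Of the ratios of named genes, 10510 held, 186 fell from past 2-fold to within it, 119 moved and 4 changed sign. A ratio past 2-fold held if it stayed past it on the same side. A ratio within 2-fold held if it shifted by less than 1.5-fold, whichever side of 2-fold it ended on, and otherwise moved. List medians stayed in 999 cases and moved in 22. No paired analysis was possible because each genotype had 1 library, and no replicate could be left out. The depth limits wild-type-labelled classes most, since 17 Cd8-only and 17 Cd4-only barcodes leave a count of 0 in the Cd8-only class with a level of up to 27.5 CPM allowed.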

Other observations

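The Gimap genes, which code for GTPases that keep lymphocytes alive, were measured for 8 of 8 members over all T cells. Of these, 1 was past 2-fold higher in the deficient-labelled library and 0 were lower, with a list median of 0.43. Gimap7 was that gene, at 64.6 CPM in deficient-labelled and 28.2 CPM in wild-type-labelled T cells. It was carried by 22 of 55 deficient-labelled and 0 of 17 wild-type-labelled Cd8-only barcodes, but by 19 of 106 and 10 of 46 neither barcodes. Gimap3 was past 2-fold higher in Cd4-only cells alone, at 512 CPM in the deficient-labelled and 188 CPM in the wild-type-labelled library (log2 ratio 1.44).

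A few receptor genes, chosen after their values were seen and counted against no list, had different levels in Trdc barcodes and in the other neither barcodes. Cxcr6, a chemokine receptor of tissue-resident lymphocytes, was at 360 CPM in Trdc and 69.1 CPM in the other neither barcodes of the deficient-labelled library. In the wild-type-labelled library Cxcr6 was at 383 and 8.46 CPM, in 6 of 8 and 2 of 38 barcodes. Il18r1, a chain of the interleukin-18 receptor, was at 423 and 35.7 CPM in the deficient-labelled library and at 222 and 59.2 CPM in the wild-type-labelled library. Ccr2, an inflammatory chemokine receptor, was at 264 and 100.3 CPM in the deficient-labelled and at 282 and 29.6 CPM in the wild-type-labelled library. Il7r, the interleukin-7 receptor, was at 571 and 185 CPM in the deficient-labelled and at 443 and 135 CPM in the wild-type-labelled library. Each of these 4 genes was thus higher in Trdc barcodes of both libraries, over 20 and 8 barcodes.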
